A study of Mus musculus with 6 samples.

Results

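ATP-binding cassette (ABC) transporters are membrane proteins that use ATP to move lipids, drugs, conjugated metabolites and ions across membranes. The genes described here are all those on the array whose symbol begins with Abca, Abcb, Abcc, Abcd, Abce, Abcf or Abcg followed by a number. The array held 84 probes for 48 such genes, out of 41174 non-control probes in all. The reference table lists 50 genes of this kind, and Abca12 and Abca16 had no probe. A total of 35 genes were tested among 20091 features, because the scanner software placed a probe of theirs well above background on the 2 arrays of 1 or more groups, while 13 had a probe but were not tested. The cultures were cortical and striatal astrocytes of wild-type C57BL/6J mice, prepared from pups 1 day after birth and grown in medium with 10% fetal bovine serum. Dividing cells had been depleted with 5 µM cytosine arabinoside for 2 days in all groups, and treatment began after 13 days in vitro. Control cultures (n = 2 arrays) are titled as control medium, and the treatment text gives DMSO at a matching concentration. Ro cultures (n = 2) received 1 µM Ro3303544, an inhibitor of glycogen synthase kinase 3 (GSK-3), for 48 h. Washout cultures (n = 2) received the same treatment and were then kept in growth medium for another 48 h. They were therefore older than the other cultures when RNA was taken, and no untreated culture of that age was measured.

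In the brain, ABCA1 and some members of the G subfamily load cholesterol and phospholipid from astrocytes onto apolipoprotein E, the main lipid carrier between glia and neurons. ABCB1 (P-glycoprotein) and ABCG2 expel drugs, most of all at the capillary endothelium. Members of the C subfamily export glutathione, its conjugates and other organic anions. The D subfamily carries fatty acids into peroxisomes, and the E and F proteins have the ATP-binding domains but no membrane domain and act in translation.

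Arrays had 60.4% to 65.2% of their probes above background, and their 75th percentile of processed intensity ranged from 631 to 807. Levels are log2 processed intensity minus that percentile, so that a negative level lies below it. Levels of different genes rest on different probes and were not compared with each other. All 12 astrocyte markers tested were above background, while 4 of 8 endothelial markers on the array (Cldn5, Pecam1, Cdh5 and Ly6c1) were not above background in any group. Wnt target genes, which rise when GSK-3 is inhibited, were higher in Ro in 6 of 6 cases, among them Axin2 (4.29 ± 0.13). Control and Ro arrays were on slide 1 and washout arrays on slide 2, so that washout, slide and culture age cannot be told apart. In these bulk RNA samples, fewer cells of a type and less RNA per cell cannot be told apart either.

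Ro treatment moved ABC genes in both directions. Lipid-handling genes of the A subfamily (Abca8a, Abca8b, Abca9), the sterol exporters Abcg1 and Abcg4 and the orphan transporter Abcc12 fell, while the drug transporter Abcb1b, its neighbour Abcb4, the glutathione-conjugate transporter Abcc1, Abcc4 and the peroxisomal Abcd2 rose. The sterol and phospholipid exporters Abca1 and Abca7 also rose, by 0.34 and 0.40 on the log2 scale, in calls that were lost without some array. In Ro against control, 13 ABC genes were higher and 11 lower at a Benjamini-Hochberg adjusted p under 0.05 from limma, which is 68.6% of the 35 tested. The same threshold called 42.1% of all features, 19.4% as higher and 22.7% as lower. Abcg5 passed the filter on dim probes only through Ro, where it is high, and so had to differ. Of the 32 ABC genes above background on all arrays of both groups, 12 were higher and 10 lower (68.8%). The share called of all features measured in that way was 41.6%. A change of at least 2-fold was found for 6 of these 32, 3 in each direction, against 9.19% of all features measured in that way. The median change of the ABC genes was 0.04 on the log2 scale, and the median size of the change regardless of sign was 0.40, against 0.31 over all features. The arrays of the groups did not overlap for 31 of the 35, against 77.3% of all features. With 2 arrays a group, the smallest p that an exact two-sided permutation test can reach is 0.333, so each call rests on the spread that limma pooled over genes. The labels do not say whether the 2 samples of a group came from separate cultures, and p-values measure only the spread between these samples.

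The call for 11 genes was kept when any 1 array was left out: Abca8a, Abca8b, Abca9, Abcb1b, Abcb4, Abcc1, Abcc4, Abcc12, Abcd2, Abcg1 and Abcg4. The other 13 calls were lost without some array. Leaving out 1 control or Ro array leaves 1 array in that group, and fewer of all features were called then too. The losses were therefore not limited to ABC genes. Abcc8, which was not called with all arrays, changed by 1.46 without control 1 and by -1.92 without control 2. With no filter on dim probes, which adds features to the adjustment, the counts were 5 higher and 7 lower. Under that setting 17.8% of all features were called.

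In washout against Ro, which shares the Ro arrays with the first comparison, 10 ABC genes were higher and 13 lower (65.7% of 35). Over all features 41.5% were called, 21.4% as higher and 20.1% as lower. The median change of the ABC genes was -0.06, and the arrays did not overlap for 30 of them against 74.4% of all features. Of the 32 above background on all arrays of both groups, 9 were higher and 12 lower (65.6%). The share called of all features measured in that way was 41.4%. The change reached 2-fold in 6 of the 32 genes, against 9.13% of those features. With the authors' deposited values the split was 6 higher and 13 lower, and the median of all features was -0.12. Leaving out 1 Ro or washout array left fewer calls among ABC genes and among all features. The change of Abcc3 was then 0.73 without Ro 2, and that of Abca6 was 1.38 without washout 2. In washout against control, 2 ABC genes were lower and 0 higher (5.71% of 35), against 10.1% of all features, 4.13% as higher and 5.97% as lower. The 2 genes were Abcg1 and Abcg2. The arrays of washout and control did not overlap for 19 of the 35, against 56.2% of all features, and 0 called ABC genes changed at least 2-fold, against 2.17%. At an unadjusted p under 0.05 from limma, 2 ABC genes were higher and 4 lower. The share of all features at that threshold was not counted, so no lean is read from these counts. Both calls were lost without control 1, control 2 or washout 1, and the call of Abcg2 also without washout 2. Without control 1 another gene was called lower, Abcg5, which is dim in both groups, and without control 2 it was Abcc8, dim in washout. Without washout 2 Abca6 was called higher. In total 24 genes were called in at least 1 comparison, and the other 11 (Abca2, Abca6, Abcb6, Abcb8, Abcb10, Abcc3, Abcc5, Abcc8, Abcd4, Abcf2 and Abcf3) in none. Some of these passed under an alternative. Abcc5 passed in the first 2 comparisons with the mean of its probes. Abcf2 passed in Ro against control with quantile normalization or a trended variance. In washout against Ro, Abcc3 passed with a trended variance and Abcc8 with only the arrays of both groups.

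**Figure D1:**
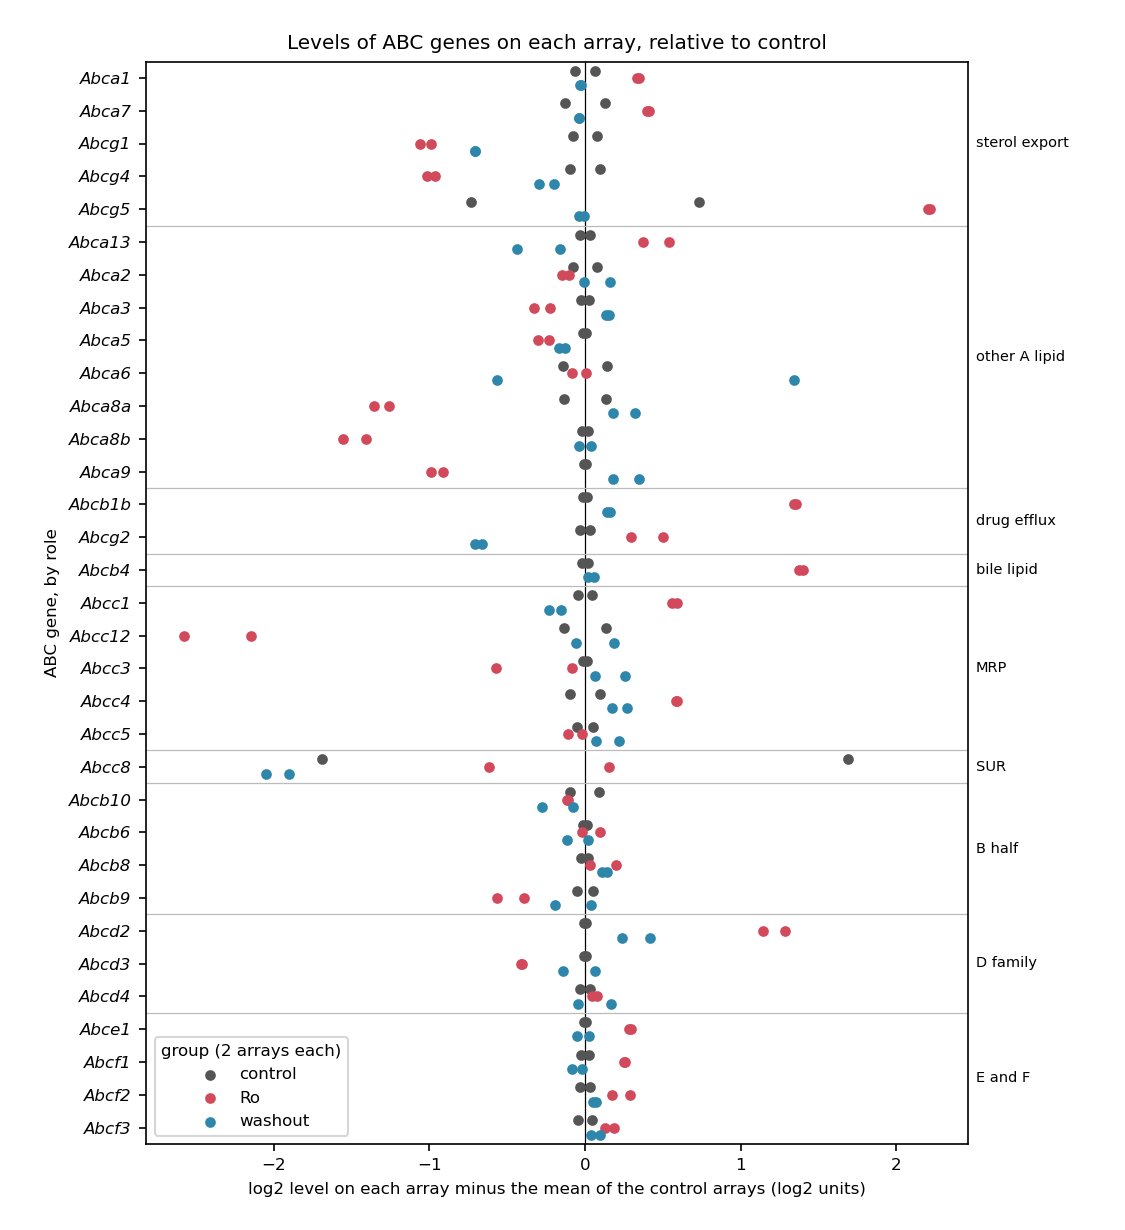
Level of the tested ABC genes described here on each array (x axis, log2 units) relative to the mean of the 2 control arrays, with genes in rows by role (MRP, multidrug resistance proteins; SUR, sulfonylurea receptors) and 2 points per group. Ro points lie to the left for Abca8b and Abca8a and to the right for Abcb1b and Abcb4; the extreme points of Abcc12 and Abcg5 rest on dim values (changes of -0.97 and 0.17 with normexp correction), and most washout points lie nearer to the control points.

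Among exporters of sterol and phospholipid, 5 of 6 genes were tested. In Ro 3 were higher and 2 lower, against 19.4% and 22.7% of all features. ABCG1 hands cholesterol to lipoprotein particles. The level of Abcg1 was -2.18 and -2.33 on the control arrays, -3.24 and -3.31 on the Ro arrays, and -2.96 on both washout arrays. Both Ro arrays were the lowest, and the 3 groups did not overlap. Abcg1 fell 2.03-fold in Ro (-1.02 ± 0.08, SE, adjusted p = 0.00094). It was higher in washout than in Ro by 0.32 ± 0.08 (adjusted p = 0.033) and still lower than in control by 0.71 on that scale (-0.71 ± 0.08, adjusted p = 0.015). The rise against Ro was lost without Ro 1, Ro 2, washout 1 or washout 2, with changes of 0.28 to 0.35. It was also lost under median scaling (limma adjusted p = 0.14) and quantile normalization (adjusted p = 0.076). The same held for the authors' values (adjusted p = 0.17), normexp correction (adjusted p = 0.17) and a trended variance (adjusted p = 0.079). The difference from control was lost without control 1, control 2 or washout 1 (adjusted p from 0.055 to 0.061). With normexp background correction the change in Ro was -0.64 and the difference from control -0.47.

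ABCG4 is a close relative of ABCG1, found chiefly in neurons and astrocytes. Abcg4 stood at 0.29 and 0.49 in control, -0.62 and -0.57 in Ro, and 0.19 and 0.10 in washout. Ro was clearly below both other groups, and the washout arrays lay just under the control arrays. The change was -0.99 ± 0.09 in Ro against control (adjusted p = 0.0015) and 0.74 ± 0.09 in washout against Ro (adjusted p = 0.0035). Washout and control differed by -0.24 ± 0.09, which missed the threshold (adjusted p = 0.17). Markers of both cell types moved as well, beside 22.7% of all features lower and 19.4% higher in Ro. Of 12 astrocyte markers, 7 were lower and 3 higher in Ro, and their summed level (linear, relative to the 75th percentile) was 230.4 to 242 in control, 184 to 195 in Ro and 224 to 242 in washout. Of 6 neuron markers tested, 4 were lower and 2 higher in Ro, with sums of 9.80 to 10.0 in control, 4.29 to 4.57 in Ro and 9.54 to 10.4 in washout, while Snap25 and Slc17a7 were not above background. The part of these cells in the result was not tested.

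ABCA1 transfers cholesterol and phospholipid to lipid-poor apolipoproteins, and ABCA7 is its nearest relative. Abca1 read 3.96 and 4.09 in control, 4.36 and 4.37 in Ro and 3.99 and 4.0 in washout. It thus moved opposite to Abcg1 and Abcg4, with both Ro arrays above the other 4. Abca1 rose by 0.34 ± 0.07 in Ro (1.27-fold, adjusted p = 0.020) and was lower in washout than in Ro (-0.37 ± 0.07, adjusted p = 0.015). Abca7 read 1.27 and 1.53 in control, 1.79 and 1.81 in Ro and 1.36 on both washout arrays, and rose by 0.40 ± 0.10 in Ro (adjusted p = 0.032). In washout it was lower than in Ro (-0.44 ± 0.10, adjusted p = 0.024). The rise in Ro was lost without control 1, Ro 1 or Ro 2, for Abca1 (adjusted p up to 0.11) and for Abca7 (up to 0.13). The difference between washout and Ro was lost for Abca1 without Ro 1 or Ro 2 (up to 0.090), and for Abca7 without any 1 of the Ro and washout arrays (up to 0.11).

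ABCG5 pairs with ABCG8 to excrete sterols from liver and gut. The Abcg5 probe was well above background on both Ro arrays (-4.82 and -4.80) and on none of the other 4. It read -7.75 and -6.29 in control and -7.02 and -7.05 in washout, levels that give only a bound. Abcg5 was at least 1.54-fold higher in Ro than in control (adjusted p = 0.017) and at least 1.02-fold higher than in washout (adjusted p = 0.016), where both p-values compare Ro with background values in a gene that passed the filter only through Ro. The bound sets the Ro mean against the higher of the dim level and the lowest signal called above background on each array. Neither probe of Abcg8 was above background on any array. The Ro against control call was lost without Ro 1 or Ro 2 (adjusted p up to 0.071), the washout against Ro call without any 1 of those 4 arrays (up to 0.068), and both with normexp correction (0.17, adjusted p = 0.28, and -0.33, adjusted p = 0.051).

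The partners of sterol efflux outside the ABC family moved in both directions. Of 18 genes tested in a list of targets of the liver X receptor (LXR) and lipoprotein factors, 4 were higher and 3 lower in Ro, with a median change of -0.01. The share called was near the 42.1% of all features, so the count shows nothing particular to this list. Lcat, which esterifies cholesterol on lipoproteins, fell by 1.66 ± 0.09 (adjusted p = 0.00030), and Npc2, a lysosomal cholesterol carrier, rose by 0.86 ± 0.10 (adjusted p = 0.0030). Mylip, an LXR target that degrades the LDL receptor, rose by 0.42 ± 0.10 (adjusted p = 0.027). The changes of Apoe (0.02 ± 0.10), Srebf1 (-0.10 ± 0.09), Nr1h2 (-0.08 ± 0.08) and Nr1h3 (-0.11 ± 0.08) missed the threshold (adjusted p from 0.32 to 0.88). Nr1h3, which encodes LXR alpha, was higher in washout than in control (0.43 ± 0.08, adjusted p = 0.039).

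Of 14 other genes of the A subfamily, 8 were tested, with a median change of -0.27 in Ro. Of the 8, 1 was higher and 5 lower, against 19.4% and 22.7% of all features. Abca8a, Abca8b, Abca9, Abca6 and Abca5 are neighbours on chromosome 11, a cluster of lipid transporters whose substrates are less well known. Abca8b stood at -0.44 and -0.47 in control, -2.01 and -1.86 in Ro and -0.49 and -0.42 in washout. It fell 2.79-fold in Ro (-1.48 ± 0.08, adjusted p = 0.00035) and was 2.79-fold higher in washout than in Ro (adjusted p = 0.00034). Its second probe, above background in control and washout only, differed by -1.85 and 1.44, with Ro values that are dim.

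Abca8a read -1.29 and -1.56 in control, -2.68 and -2.77 in Ro and -1.24 and -1.10 in washout. Both Ro arrays were more than 1 log2 unit below the other 4. The differences were -1.31 ± 0.12 (adjusted p = 0.0013) and 1.55 ± 0.12 (adjusted p = 0.00074). Abca9 read -2.23 and -2.25 in control, -3.23 and -3.16 in Ro and -2.06 and -1.90 in washout, with differences of -0.95 ± 0.09 (adjusted p = 0.0013) and 1.21 ± 0.09 (adjusted p = 0.00061). Against control, washout differed by 0.25 ± 0.12 for Abca8a, 0.00 ± 0.08 for Abca8b and 0.26 ± 0.09 for Abca9, none past the threshold. Abca8a and Abca8b are close paralogs, and whether the probe of one also reads the other was not tested.

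The remaining members of the cluster differed from these. Abca5 read -0.16 and -0.14 in control, -0.37 and -0.44 in Ro and -0.27 and -0.31 in washout, and fell by 0.26 ± 0.07 in Ro (adjusted p = 0.033). Its second probe moved the other way (0.08), and the mean of both probes gave -0.09 (adjusted p = 0.48). The call was also lost without control 1, control 2, Ro 1 or Ro 2 (adjusted p up to 0.18), and under median scaling (0.069), the authors' values (0.077) and normexp correction (0.058). Abca6 changed by -0.04 ± 0.61 in Ro against control (95% confidence interval -1.60 to 1.52), and its 2 washout arrays read -2.35 and -4.26. That spread sets the width of the interval, and no direction is given for Abca6.

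The 250 bases before the RefSeq transcript start of the 3 cluster genes that fell most are shown (GRCm38.p6; Abca8b chr11:109995846-109996095, minus strand; Abca8a chr11:110095938-110096187, minus strand; Abca9 chr11:110168154-110168403, minus strand), because the genes adjoin each other and moved together. Capitals mark the letters of the motifs searched on both strands, here an E-box (CACGTG) in Abca8a at position -136 from the start and the reverse complement of a GC box (GGGCGG) in Abca8b at position -36. None of the motif letters occurs in these bases of Abca9. Past the start, outside the bases shown, Abca8b also holds an E-box at position 19 and the antioxidant element TGACNNNGC at position 12.
Abca8b: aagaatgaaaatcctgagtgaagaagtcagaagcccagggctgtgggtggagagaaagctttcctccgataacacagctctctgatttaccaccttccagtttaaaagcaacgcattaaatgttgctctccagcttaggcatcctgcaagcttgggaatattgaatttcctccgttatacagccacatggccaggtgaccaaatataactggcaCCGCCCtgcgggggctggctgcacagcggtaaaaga
Abca8a: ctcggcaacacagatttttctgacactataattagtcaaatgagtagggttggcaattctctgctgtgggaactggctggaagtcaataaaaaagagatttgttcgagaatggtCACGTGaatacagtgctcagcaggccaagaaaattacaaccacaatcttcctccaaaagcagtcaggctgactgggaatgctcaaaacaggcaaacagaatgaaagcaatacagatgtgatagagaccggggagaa
Abca9: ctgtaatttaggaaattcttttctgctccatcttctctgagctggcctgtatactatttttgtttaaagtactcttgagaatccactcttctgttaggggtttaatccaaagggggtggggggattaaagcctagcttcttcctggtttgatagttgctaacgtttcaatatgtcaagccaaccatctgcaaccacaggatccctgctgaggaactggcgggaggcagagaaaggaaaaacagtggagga

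Abca8a, Abca9 and Abca6 are also known as markers of meningeal and perivascular fibroblasts. Of 8 other markers of those cells tested, 5 were lower and 2 higher in Ro, against 22.7% and 19.4% of all features. The summed level of these markers (linear, relative to the 75th percentile) was 34.7 and 40.1 in control and 18.8 to 19.2 in Ro. In washout it was 24.9 to 28.6. Slc6a13 and Slc22a6, which were also listed, were not above background. In washout against Ro, 5 of the 8 were lower and 1 higher (median change -0.68), against 20.1% and 21.4% of all features. Abca8a and Abca9 were higher, and the sum rose. In washout against control 6 of the 8 were lower, against 5.97% of all features. None of the 3 Abca genes passed that test. The part of these cells in the result was not tested.

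Abca3, a phospholipid transporter of lamellar bodies, read 1.09 and 1.04 in control, 0.74 and 0.84 in Ro and 1.22 and 1.20 in washout. It fell by 0.27 ± 0.07 in Ro (adjusted p = 0.035) and was higher in washout than in Ro (0.42 ± 0.07, adjusted p = 0.0096). Its 3 probes ran in the same direction (-0.15, -0.27 and -0.40). The fall was lost without control 1, control 2, Ro 1 or Ro 2 (adjusted p up to 0.20), and under median scaling (0.11), the authors' values (0.12) and normexp correction (0.085). The difference between washout and Ro was lost without Ro 1 (adjusted p = 0.075) and with the authors' values (0.053), and was 0.27 with the mean of its probes. For Abca13, 2 probes gave opposite directions in Ro, 0.46 ± 0.12 for the brighter (adjusted p = 0.034) and -1.52 for the dimmer, and the mean of the probes gave -0.53 (adjusted p = 0.0082). No direction is therefore assigned to Abca13 in Ro against control, and its call was also lost without control 1, control 2, Ro 1 or Ro 2 (adjusted p up to 0.15) and with normexp correction (0.21, adjusted p = 0.10). In washout against Ro the brighter probe differed by -0.76 ± 0.12 (adjusted p = 0.0072), or -0.38 after normexp correction. The dimmer probe was above background on 1 Ro array and no washout array, so that its difference of -1.77, the mean of the probes (-1.26) and the mean against control (-1.80, adjusted p = 0.0042) rest on background values. Abca2, which is abundant in myelinating cells, differed by -0.12 ± 0.10 in Ro (95% confidence interval -0.37 to 0.12) and was called in no comparison. Of 8 markers of the oligodendrocyte lineage tested, 5 were lower and 1 higher in Ro, against 22.7% and 19.4% of all features. Their sums were 31.5 to 31.9 in control, 14.5 to 16.3 in Ro and 23.3 to 25.8 in washout. Mog was not above background.

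The tested genes of drug export (Abcb1b and Abcg2) and phosphatidylcholine export (Abcb4) rose in Ro. P-glycoprotein, the classic multidrug pump, is encoded in mice by Abcb1a and Abcb1b. Abcb1b read 0.23 and 0.25 in control, 1.58 and 1.59 in Ro and 0.38 and 0.40 in washout. Replicates differed by far less than the groups, and Ro stood above both. Abcb1b rose 2.54-fold (1.35 ± 0.06, adjusted p = 0.00025), was 2.29-fold lower in washout than in Ro (-1.20 ± 0.06, adjusted p = 0.00031), and differed from control by 0.15 ± 0.06 in washout (adjusted p = 0.21). Its second probe gave 1.31, -1.26 and 0.05.

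Abcb4, which flips phosphatidylcholine into bile in the liver, read 0.54 and 0.58 in control, 1.93 and 1.96 in Ro and 0.62 and 0.58 in washout. The washout arrays lay at the control level, and the Ro arrays well above it. Abcb4 rose 2.62-fold in Ro (1.39 ± 0.07, adjusted p = 0.00025) and was 2.54-fold lower in washout than in Ro (-1.35 ± 0.07, adjusted p = 0.00027), with 0.04 ± 0.07 left against control. A second, dimmer probe, above background in Ro only, measured 0.92 and -2.13, and -1.21 for washout against control. With the mean of both probes Abcb4 was called lower in washout than in control (-0.58, adjusted p = 0.019), a value that rests on the dim probe. Abcb1a, Abcb1b and Abcb4 lie next to each other on chromosome 5. The single Abcb1a probe was above background on washout 1 only, inside a bright region of that slide, and was not tested. Abcb1a and Abcb1b are close paralogs, and cross-reading between their probes was not tested.

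The 250 bases before the RefSeq start of Abcb1b (chr5:8797897-8798146, plus strand) and Abcb4 (chr5:8893471-8893720, plus strand; GRCm38.p6) are shown because these neighbours rose by like amounts. Capitals mark a GC box, at position -48 in Abcb1b and -46 in Abcb4, and no letters of the TCF/LEF motif occur in either window.
Abcb1b: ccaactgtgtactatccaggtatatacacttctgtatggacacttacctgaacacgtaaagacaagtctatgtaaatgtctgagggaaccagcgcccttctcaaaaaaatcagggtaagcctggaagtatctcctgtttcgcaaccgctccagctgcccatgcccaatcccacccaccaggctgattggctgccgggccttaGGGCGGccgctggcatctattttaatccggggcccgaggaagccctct
Abcb4: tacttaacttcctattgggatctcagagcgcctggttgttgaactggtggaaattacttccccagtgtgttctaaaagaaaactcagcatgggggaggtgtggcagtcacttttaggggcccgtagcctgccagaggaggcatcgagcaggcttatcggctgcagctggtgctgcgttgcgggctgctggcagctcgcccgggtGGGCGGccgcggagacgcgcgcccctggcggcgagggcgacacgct

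ABCG2, the breast cancer resistance protein, exports drugs and urate. Abcg2 read 0.01 and -0.06 in control, 0.48 and 0.27 in Ro and -0.73 and -0.68 in washout. The 3 groups did not overlap, and washout was the lowest. Abcg2 rose by 0.40 ± 0.09 in Ro (adjusted p = 0.025), was 2.11-fold lower in washout than in Ro (-1.08 ± 0.09, adjusted p = 0.0011), and was 1.60-fold lower in washout than in control (-0.68 ± 0.09, adjusted p = 0.021). Its second probe gave 0.44, -1.15 and -0.71. The rise in Ro was lost without control 1, control 2 or Ro 1 (adjusted p up to 0.13), and the difference between washout and control without any 1 of their 4 arrays (adjusted p from 0.055 to 0.088). Abcg2, like Abcb1a, is also a marker of brain endothelium. Of 4 endothelial markers tested, 3 were lower in Ro and none higher, against 22.7% and 19.4% of all features. Summed levels of the 4 were 5.85 to 6.03 in control, 1.50 to 1.54 in Ro and 7.58 to 7.62 in washout. In washout against Ro, 1 of the 4 was higher and 1 lower (median 0.03), against 21.4% and 20.1% of all features. In washout against control 1 was higher and 2 lower (median -0.54), against 4.13% and 5.97%. The sums mainly follow Slco1a4, whose mean level was 2.36 in control, -0.16 in Ro and 2.82 in washout. The defining endothelial genes Cldn5, Pecam1, Cdh5 and Ly6c1 were not above background in any group, and the part of these cells in the result was not tested.

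Other genes of xenobiotic handling were examined beside them. Of 7 receptors and phase I enzymes tested, 4 were higher and 1 lower in Ro, where 19.4% of all features were higher and 22.7% lower. Ahr, a receptor for aromatic hydrocarbons, rose by 2.65 ± 0.07 (adjusted p = 6.7e-05), and Por, the electron donor of cytochrome P450 enzymes, by 1.11 ± 0.10 (adjusted p = 0.0011). Cyp1b1, a P450 enzyme controlled by Ahr, rose by 0.72 ± 0.09 (adjusted p = 0.0031).

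Of 8 genes of the multidrug-resistance-protein (MRP) group, 5 were tested. In Ro 2 were higher and 1 lower, against 19.4% and 22.7% of all features. ABCC1 exports glutathione, glutathione conjugates and leukotriene C4. Abcc1 read 1.48 and 1.56 in control, 2.11 and 2.08 in Ro and 1.29 and 1.36 in washout. Ro was the highest group, and washout lay just under control. Abcc1 rose 1.49-fold in Ro (0.58 ± 0.07, adjusted p = 0.0036), and washout differed from Ro by -0.77 ± 0.07 (adjusted p = 0.0014) and from control by -0.19 ± 0.07 (adjusted p = 0.17). The other 2 probes of Abcc1 gave 0.66 and 0.70 in Ro against control.

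ABCC4 exports cyclic nucleotides, prostaglandins and conjugated drugs. Abcc4 read 0.53 and 0.35 in control, 1.03 on both Ro arrays and 0.71 and 0.61 in washout. Ro lay above both other groups. It rose 1.51-fold in Ro (0.59 ± 0.09, adjusted p = 0.0068) and was lower in washout than in Ro (-0.37 ± 0.09, adjusted p = 0.028), and the second probe gave 0.73 and -0.50. The difference between washout and Ro was lost without any 1 of the Ro and washout arrays (adjusted p from 0.056 to 0.13) and with normexp correction (0.063).

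Abcc12, a member of the group without a settled substrate, fell in Ro. It read -2.88 and -3.14 in control, -5.16 and -5.59 in Ro and -3.07 and -2.83 in washout. Only 1 of 2 Ro arrays was well above background, so that the size of the change rests on dim values. The fitted changes were -2.36 ± 0.19 in Ro (adjusted p = 0.00088) and 2.43 ± 0.19 in washout against Ro (adjusted p = 0.00075). With normexp correction they were -0.97 and 1.03, both past the threshold. Of 6 ependymal markers tested, 6 were lower in Ro and 6 higher in washout than in Ro, against 22.7% and 21.4% of all features. Their summed level was 36.3 to 37.2 in control, 12.6 to 14.6 in Ro and 41.3 to 44.4 in washout. None of the 6 was below background throughout. The summed levels of the other marker lists except microglia also fell in Ro and were higher in washout than in Ro. That course of the sums was thus not particular to ependymal markers. The part of ependymal cells in the result was not tested.

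With the probe used, Abcc3 and Abcc5 passed the threshold in no comparison. Under a trended variance Abcc3 passed in washout against Ro (limma adjusted p = 0.046). Abcc3, an exporter of bile acids and glucuronides, differed by -0.33 ± 0.18 in Ro (95% confidence interval -0.78 to 0.12) and by 0.49 ± 0.18 in washout against Ro (adjusted p = 0.080). Abcc5, an exporter of cyclic nucleotides, differed by -0.06 ± 0.09 in Ro (95% confidence interval -0.29 to 0.16). Its second probe gave -0.18, while another, assigned to another RefSeq transcript of the gene, gave -0.74 in Ro against control and 0.91 in washout against Ro. The probes of Abcc5 thus differ in size, and single probes carry no test. The mean of its probes passed the threshold, at -0.33 in Ro against control (adjusted p = 0.018) and 0.42 in washout against Ro (adjusted p = 0.0086).

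Glutathione genes were set beside the MRP group. Of 16 genes of glutathione synthesis and conjugation, 4 were higher and 4 lower in Ro, with a median change of 0.02. Slc7a11, the cystine importer that feeds glutathione synthesis, rose by 5.06 ± 0.23 (adjusted p = 0.00023) and was not well above background in washout. Mgst1, a membrane-bound glutathione transferase, rose by 1.39 ± 0.07 (adjusted p = 0.00031), while Ggt5, which cleaves extracellular glutathione and leukotriene C4, fell by 1.65 ± 0.18 (adjusted p = 0.0022), and Gstm1, a cytosolic transferase, fell by 1.30 ± 0.11 (adjusted p = 0.0010). The changes of Gclc (0.10 ± 0.09) and Gclm (-0.26 ± 0.18), which encode the subunits of the rate-limiting ligase, missed the threshold. Of 12 genes in a list of NRF2 targets, 4 were higher and 2 lower. For both lists the share called was near the 42.1% of all features, so neither count shows anything particular to its list. Nfe2l2, which encodes NRF2, rose by 0.55 ± 0.07 (adjusted p = 0.0030), but its targets Nqo1 (0.02 ± 0.08) and Hmox1 (-0.03 ± 0.08) missed the threshold in Ro. Nqo1 was lower in washout than in control (-0.75 ± 0.08, adjusted p = 0.013).

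The 250 bases before the start of Abcc12 (chr8:86566591-86566840, minus strand) and of the first of 2 Abcc4 windows (chr14:118706220-118706469, minus strand; RefSeq, GRCm38.p6) are shown because they carry the letters of the TCF/LEF motif (CTTTGA, here as TCAAAG) and of the antioxidant element (TGACNNNGC). In Abcc12 the TCF/LEF letters begin at position -110. In Abcc4 the antioxidant letters begin at position -25, read on the opposite strand and directly followed by a GC box, and an E-box begins at position -205.
Abcc12: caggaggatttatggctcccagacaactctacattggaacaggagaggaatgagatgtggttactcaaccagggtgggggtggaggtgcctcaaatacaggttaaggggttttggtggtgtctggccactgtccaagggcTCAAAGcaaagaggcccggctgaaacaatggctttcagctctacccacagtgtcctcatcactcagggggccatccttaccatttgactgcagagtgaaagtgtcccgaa
Abcc4: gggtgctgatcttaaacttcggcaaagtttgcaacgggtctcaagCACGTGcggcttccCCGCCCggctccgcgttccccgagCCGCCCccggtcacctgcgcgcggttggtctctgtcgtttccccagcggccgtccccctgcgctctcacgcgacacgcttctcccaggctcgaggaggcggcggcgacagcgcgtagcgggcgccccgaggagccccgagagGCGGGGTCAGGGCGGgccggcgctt

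In the D subfamily, Abcd2 and Abcd3 import fatty acids into peroxisomes and Abcd4 serves cobalamin export from lysosomes. Abcd2 read -4.49 and -4.48 in control, -3.20 and -3.34 in Ro and -4.25 and -4.07 in washout. Ro was the highest group, and with this probe the washout arrays lay slightly above the control arrays. Abcd2 rose 2.32-fold (1.22 ± 0.10, adjusted p = 0.00088) and was lower in washout than in Ro (-0.89 ± 0.10, adjusted p = 0.0021). The difference between washout and control, 0.33 ± 0.10, missed the threshold (adjusted p = 0.10). The second probe gave 0.90 and -1.43, and -0.53 for washout against control, where its washout values are not above background. With normexp correction the probe used gave 0.42 in Ro against control and -0.38 in washout against Ro.

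The level of Abcd3, a major protein of the peroxisomal membrane, was 4.49 and 4.48 in control, 4.08 on both Ro arrays and 4.55 and 4.35 in washout. Abcd3 fell by 0.41 ± 0.09 (adjusted p = 0.021) and was higher in washout than in Ro (0.37 ± 0.09, adjusted p = 0.028), and its other 2 probes gave -0.50 and -0.48 in Ro against control, with no test.
The fall of Abcd3 was lost without control 1, control 2, Ro 1 or Ro 2 (adjusted p up to 0.10), and its rise against Ro without any 1 array other than washout 2 (up to 0.13), under median scaling (0.060), the authors' values (0.068), the mean of its probes (0.074) and with only the arrays of both groups (0.053). Abcd4 differed by 0.06 ± 0.09 in Ro (95% confidence interval -0.18 to 0.30).

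Of 12 genes of peroxisomal fatty acid oxidation and import, 3 were lower in Ro and 0 higher, with a median change of -0.10. Over all features 22.7% were lower and 19.4% higher, so the count of lower genes shows nothing particular to this list. Among the 3 lower genes were Scp2 (-0.46 ± 0.08, adjusted p = 0.0097), a lipid-transfer protein and thiolase, and Pex3 (-0.43 ± 0.09, adjusted p = 0.017), which is needed to form the peroxisomal membrane.

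Other B-subfamily genes work in lysosomes and mitochondria. Abcb9, a lysosomal peptide transporter, read 3.09 and 2.99 in control, 2.47 and 2.65 in Ro and 3.08 and 2.84 in washout, and fell by 0.48 ± 0.12 (adjusted p = 0.026). In washout it was higher than in Ro (0.40 ± 0.12, adjusted p = 0.044). The Ro arrays were below the other 4, but the differences are small.
The call in Ro against control was lost without control 1, control 2, Ro 1 or Ro 2 (adjusted p up to 0.13). The rise of Abcb9 against Ro was lost without any 1 array other than washout 2 (up to 0.20), under median scaling (0.10), with the authors' values (0.11) and with only the arrays of both groups (0.071). Abcb6 (0.04 ± 0.09), Abcb8 (0.12 ± 0.08) and Abcb10 (-0.11 ± 0.11), which are linked to mitochondria, missed the threshold in Ro.

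The E and F proteins, which recycle ribosomes or regulate translation, were higher in Ro in 2 of 4 cases and lower in 0. With 42.1% of all features called in Ro, that count shows nothing particular to this group. Abce1, the ribosome recycling factor, read 2.89 and 2.90 in control, 3.19 and 3.18 in Ro and 2.92 and 2.84 in washout. It rose by 0.29 ± 0.07 in Ro (adjusted p = 0.025) and was lower in washout than in Ro (-0.30 ± 0.07, adjusted p = 0.021). Abcf1, a partner of initiation factor eIF2, read 2.56 and 2.62 in control, 2.84 and 2.85 in Ro and 2.57 and 2.51 in washout, and rose by 0.25 ± 0.07 (adjusted p = 0.037). In washout it was lower than in Ro (-0.30 ± 0.07, adjusted p = 0.022), and its second probe gave 0.51 and -0.53. For both, the Ro arrays stood above the other 4.
Both rises were lost without control 1, control 2, Ro 1 or Ro 2 (adjusted p up to 0.14 for Abce1 and 0.17 for Abcf1). The differences between washout and Ro were lost without Ro 1, Ro 2 or washout 2 (adjusted p up to 0.12 for each). Abcf2 (0.23 ± 0.08, adjusted p = 0.063) and Abcf3 (0.16 ± 0.07, adjusted p = 0.16) missed the threshold in Ro. Abcf2 passed it with quantile normalization (limma adjusted p = 0.037) and with a trended variance (adjusted p = 0.032).

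**Figure D2:**
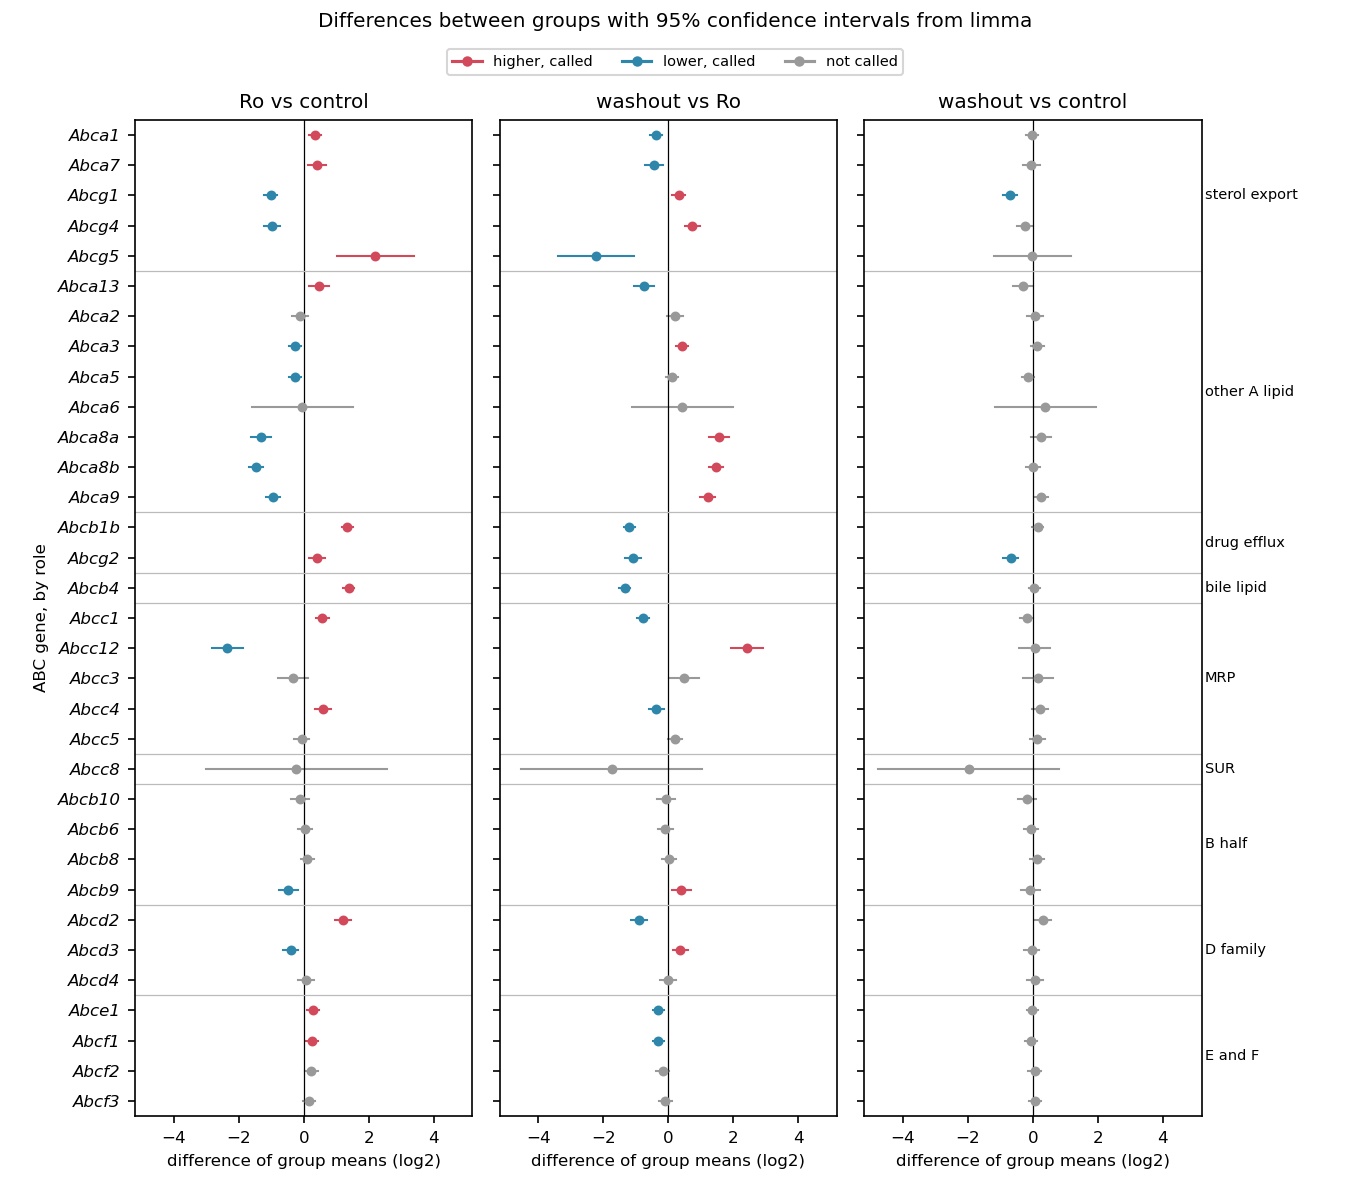
Differences of group means (x axes, log2 units) of the tested ABC genes described here in the 3 comparisons, as points with 95% confidence intervals from limma, coloured where the adjusted p was under 0.05. The panel of washout against control holds 2 coloured points, Abcg1 (-0.71) and Abcg2 (-0.68), and the widest intervals belong to Abcc8, Abca6 and Abcg5.

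Of the 35 genes, 18 had more than 1 kept probe. In Ro against control the other probes had the sign of the probe used, except for the second probes of Abca13 (-1.52 against 0.46) and Abca5 (0.08 against -0.26). These differences are means of 2 arrays each and carry no test.

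**Figure D3:**
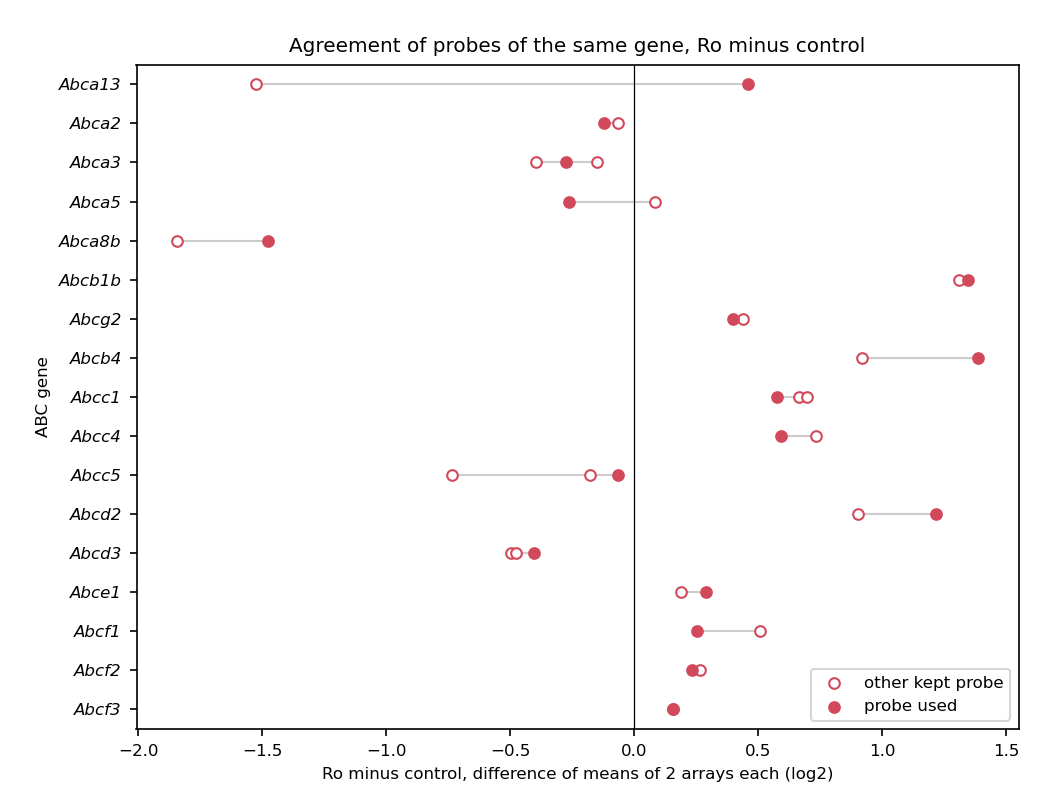
Difference between Ro and control (x axis, log2 units) for every kept probe of the ABC genes described here that have more than 1, with the probe used in the tests filled and other probes open. Probes of Abcb1b (1.35 and 1.31), Abcg2 (0.40 and 0.44) and Abcc1 (0.58, 0.66 and 0.70) lie close together, and those of Abca13 lie on opposite sides of 0.

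Of the 13 genes with a probe that were not tested, 11 had none above background on any array: Abca4, Abca14, Abca15, Abca17, Abcb5, Abcb11, Abcc2, Abcc6, Abcc9, Abcc10 and Abcg8. Abcb1a was above background on washout 1 only and Abcg3 on control 2 and Ro 2 only. Among them are Abcc2 and Abcb11, the export pumps of the bile canaliculus, Abca4 of photoreceptors, and Abcc9, the sulfonylurea receptor of pericytes and smooth muscle, for which all 3 probes were dim. A dim probe says only that no signal above background was measured here.

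RefSeq promoter windows, from 250 bases before to 50 after the transcript start (GRCm38.p6), were found for 38 of the ABC genes (45 windows) and for 24 of the 35 tested. The TCF/LEF letters CTTTGA, the motif of the Wnt pathway's transcription factors, occurred in 17.8% of the ABC windows and in 16.0% of all windows. The antioxidant element TGACNNNGC occurred in 15.6% and 12.4%, the E-box CACGTG in 13.3% and 7.15%, the sterol element TCACNCCAC in 2.22% and 1.24%, and the GC box GGGCGG in 46.7% and 35.7%. Both strands were searched. A match describes letters, not a binding site. Among tested genes TCF/LEF letters lay in the windows of Abcc12, which fell in Ro, of Abcf1, which rose, of Abcb6, which passed no threshold, and of Abcc5, which passed it only with the mean of its probes.

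**Figure D4:**
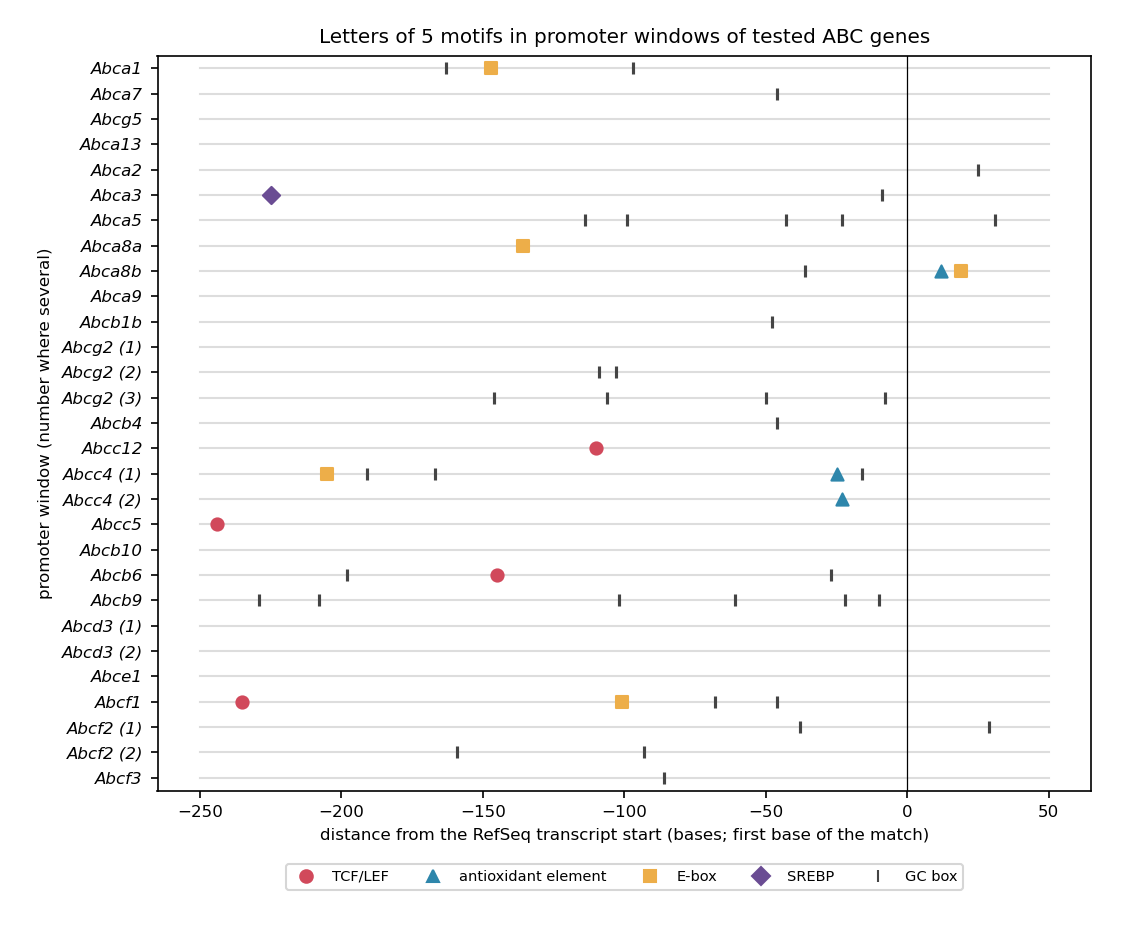
Positions of the letters of 5 motifs (x axis, distance in bases from the RefSeq transcript start to the first base of the match) in the promoter windows of the tested ABC genes, 1 row per window. TCF/LEF letters occur in 4 rows, among them Abcc12 at -110, and the GC boxes of Abcb1b and Abcb4 lie at -48 and -46.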

How the data were processed

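RNA from 6 cultures was labelled with Cy3 and hybridised to one-colour Agilent mouse arrays, per the labels' protocols. The authors' array files hold processed intensity per spot, corrected for background but not scaled between arrays, from Agilent Feature Extraction (version 10.1 per the submitters' processing notes, 10.5.1.1 per the file headers), with its flags for faulty spots and spots well above background. A further deposited table gives each probe's linear ratio, centred by a rule not given in the sources used here, and served as an alternative; its probe-centred log2 values correlated with the intensities at 0.996 or above.

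Spots of a probe were averaged after 106 faulty probes were left out, and each array's 75th percentile was subtracted from its log2 intensity. Probes were named by matching their accession to RefSeq (25097 of 41174, 61.0%), and 26473 were kept, each well above background on the 2 arrays of 1 or more groups. The kept probe with the highest mean stood for its gene (20091 features). Groups were fitted together with limma 3.58.1 in R 4.3.3 (3 residual and 2.09 prior degrees of freedom), with two-sided moderated tests and Benjamini-Hochberg adjustment over all features, at 0.05. Errors are limma's standard errors with 2 arrays per group, and precision is limited by the number of arrays. Every ABC gene is accounted for, values per array are given for those past the threshold in at least 1 comparison, and other genes come from fixed lists, at most 4 per list by size plus a fixed set. The members, lists and tests were chosen with earlier results of these data known. The procedure was tested on simulated data. Alternatives changed background correction, scaling, filter, variance model, probe choice, fold minimum, arrays fitted and pairing, and each array was omitted once. Bright regions covered 3.72% of spots on washout 1 and 0.705% on washout 2. Motifs were searched and figures drawn with Python 3.11.15 and matplotlib 3.10.9. Protein motifs were planned and not analysed here. Some items are not reported here, in the text or the figures, while counts over all ABC genes include them.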

Additional observations from a re-analysis of the deposited data

How the results depend on the processing

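Directions of the called ABC genes were kept under every alternative run, except Abca13 in Ro against control, which turned to -0.53 with the mean of its probes. A 2-fold minimum left 4 higher and 4 lower genes in Ro against control and in washout against Ro, Abcg5 among them, although its bounds are below 2-fold, and 0 in washout against control. Without the filter on dim probes the counts were 5 and 7, then 6 and 7, then 0 and 0, with more features adjusted for. The authors' values gave 6 higher genes in washout against Ro, and the mean of a gene's probes gave 4 lower genes in washout against control, adding Abca13 and Abcb4, whose second probes are dim there. Under median scaling the median of all features in washout against Ro moved to -0.11, and to -0.12 with the authors' values, and the share of higher calls over all features went from 51.5% to 40.5% and 38.9%. Leaving out 1 array gave 5 to 13 higher and 6 to 10 lower genes in Ro against control, 5 to 9 and 6 to 13 in washout against Ro, and 0 to 1 and 0 to 2 in washout against control. With the replicate number as a block, Ro against control had 9 higher and 7 lower genes, washout against Ro 7 and 10, and washout against control 0 and 1 (Abcg1). The numbers were not taken as pairs, since deviations of same-numbered arrays correlated at -0.12 (control and Ro), 0.078 (control and washout) and -0.11 (Ro and washout). With the Ro numbers exchanged, chosen after seeing the data, the block gave 11 and 11, 9 and 12, and 0 and 2. The cause of these shifts was not tested. Normexp correction, quantile normalization, a trended variance, the stricter filter and leaving out bright regions kept all counts within 1.5 times. Low signal over background limits Abcg5, Abcc12, Abcd2 and Abcc8.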

Other observations

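The uptake carriers that face the ABC exporters changed in both directions. Of 9 organic anion and nucleoside carriers tested, 4 were higher and 3 lower in Ro, where 19.4% of all features were higher and 22.7% lower. Slco4a1 fell by 3.40 ± 0.41 (limma adjusted p = 0.0030) and Slco1a4, a drug and bile acid carrier, by 2.51 ± 0.09 (-2.51, adjusted p = 0.00013), while Slco1c1, which carries thyroxine, rose by 1.60 ± 0.08 (adjusted p = 0.00027). Slco1a4 was higher in washout than in control (0.46 ± 0.09, adjusted p = 0.037). Slc29a1, a nucleoside carrier, fell by 1.02 ± 0.08 in Ro (adjusted p = 0.00093).

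Kcnj8, the pore subunit that pairs with the sulfonylurea receptor Abcc9 and lies next to it on chromosome 6, rose by 1.36 ± 0.12 in Ro (adjusted p = 0.0011), while no Abcc9 probe was above background. Kcnj8 is also a pericyte marker, and 8 pericyte and smooth muscle markers were tested, which include it. Of these markers, 6 were lower and 1 higher in Ro, against 22.7% and 19.4% of all features. Their summed level (linear, relative to the 75th percentile) was 558 to 612 in control, 214 to 216 in Ro and 431 to 444 in washout, Vtn and Higd1b were not above background, and the part of these cells was not tested. For Abcc8, the other sulfonylurea receptor, the control arrays read -2.79 and -6.17, the Ro arrays -4.33 and -5.10 and the washout arrays -6.53 and -6.38. Well above background were 1 of 2 control arrays, 2 Ro arrays and 0 washout arrays, and no comparison passed the threshold with all arrays fitted. With only the Ro and washout arrays it was lower in washout (-1.74, limma adjusted p = 0.016), a value that rests on dim washout values.

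Of 3 ABC family genes under other symbols, Cftr was not above background. The peptide transporter Tap2 fell by 0.55 ± 0.10 in Ro (adjusted p = 0.012), and Tap1 differed by -0.01 ± 0.12 in Ro and was lower in washout than in Ro (-0.46 ± 0.12, adjusted p = 0.029).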
